A study of Mus musculus with 8 samples.

Results

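Voltage-gated sodium and calcium channel subunits were followed in the occipital cortex of fasted mice. The genes were taken by symbol, as every gene of the families Scn, Cacna1, Cacna2d, Cacnb and Cacng, which gave 40 genes of the 24344 gene symbols measured. They comprised 10 pore-forming sodium channel alpha genes, 4 sodium channel beta genes, 10 pore-forming calcium channel alpha1 genes, 4 alpha2delta genes, 4 calcium channel beta genes and 8 gamma genes. All libraries were bulk RNA-seq of cortex homogenate from C57BL/6J mice at postnatal day 35. In the fasted group, 4 libraries came from mice kept without food for 48 h, and in the ad libitum group, 4 libraries came from mice with free access to food. The labels give no genetic change, drug or other agent for either group. Nothing in the labels says that the libraries came from separate mice, so the p-values below measure only the spread between these samples.

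Voltage-gated sodium channels open when the membrane depolarises and carry the rising phase of the action potential; an alpha subunit forms the pore, and beta subunits, which are also cell adhesion molecules, tune its gating and its transport to the membrane. Voltage-gated calcium channels turn depolarisation into calcium entry, which drives transmitter release at terminals, burst firing in dendrites and somata, and gene expression; the alpha1 pore is accompanied by an intracellular beta subunit and an extracellular alpha2delta subunit. Most brain members of the gamma family are known chiefly as TARPs, the transmembrane proteins that traffic AMPA-type glutamate receptors to synapses and slow their closing.

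Values are the deposited FPKM, fragment counts scaled to transcript length and library size, and fold changes are differences of log2(FPKM + 1), fasted minus ad libitum, tested with limma across all genes. Estimated depth ranged from 17400000 to 21600000 fragments per library; a 2 kb transcript at 1 FPKM then has 34.7 to 43.1 fragments. Libraries differed in sex-linked transcripts: fasted replicates 1 and 3 and ad libitum replicate 1 held Y-linked Ddx3y at 10.51 to 14.39 FPKM and almost no Xist, and fasted replicates 2 and 4 and ad libitum replicates 2 and 4 held Xist at 62.9 to 77.5 FPKM. Ad libitum replicate 3 held both, with 32.2 FPKM of Xist and 5.67 FPKM of Ddx3y, and stood apart from the other 7 libraries in this respect. Without ad libitum replicate 3, 5 of the 7 calls reported below passed, and those of Cacnb2 and Cacng4 did not, with limma adjusted p of 0.0764 and 0.103.

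Of the 40 subunit genes, 29 reached 1 FPKM in at least 4 libraries and were tested, and 11 stayed under that filter, with no library above 0.731 FPKM. The 29 tested genes changed about as often as genes at large. At a limma adjusted p under 0.05, 7 of 29 differed (24.1%), against 25.8% of the 12377 genes tested. Cacna1h and Cacnb2 were higher in fasted cortex, 2 of 29 against 9.56% of all tested genes, and Scn2b, Cacng3, Cacna1i, Cacna2d2 and Cacng4 were lower, 5 of 29 against 16.3%. With the replicate number as a block, 4 genes were higher and 5 lower, Cacnb1 and Cacng5 having joined the higher ones, against 36.4% of all tested genes called either way. The median log2 change was -0.03 over the 29 genes and -0.02 over all tested genes. In 3 genes every fasted library lay above every ad libitum library and in 6 genes below, whereas 27.6% of all tested genes showed such a gap in either direction. The called changes were small, from a log2 difference of -0.43 to 0.35. Summed over all genes, FPKM ranged from 255459 to 281890 in fasted and from 253470 to 360010 in ad libitum libraries. Scaling the libraries to equal FPKM sums put the median of all genes at 0.09 and ended the calls of Scn2b, Cacna1i, Cacna2d2, Cacng4 and Cacnb2; with the 10 most abundant genes left out of the sums the median was -0.002, and of the 7 calls Cacng4 was the one lost. In bulk tissue, fewer cells of a type and less RNA per cell cannot be told apart.

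**Figure D1:**
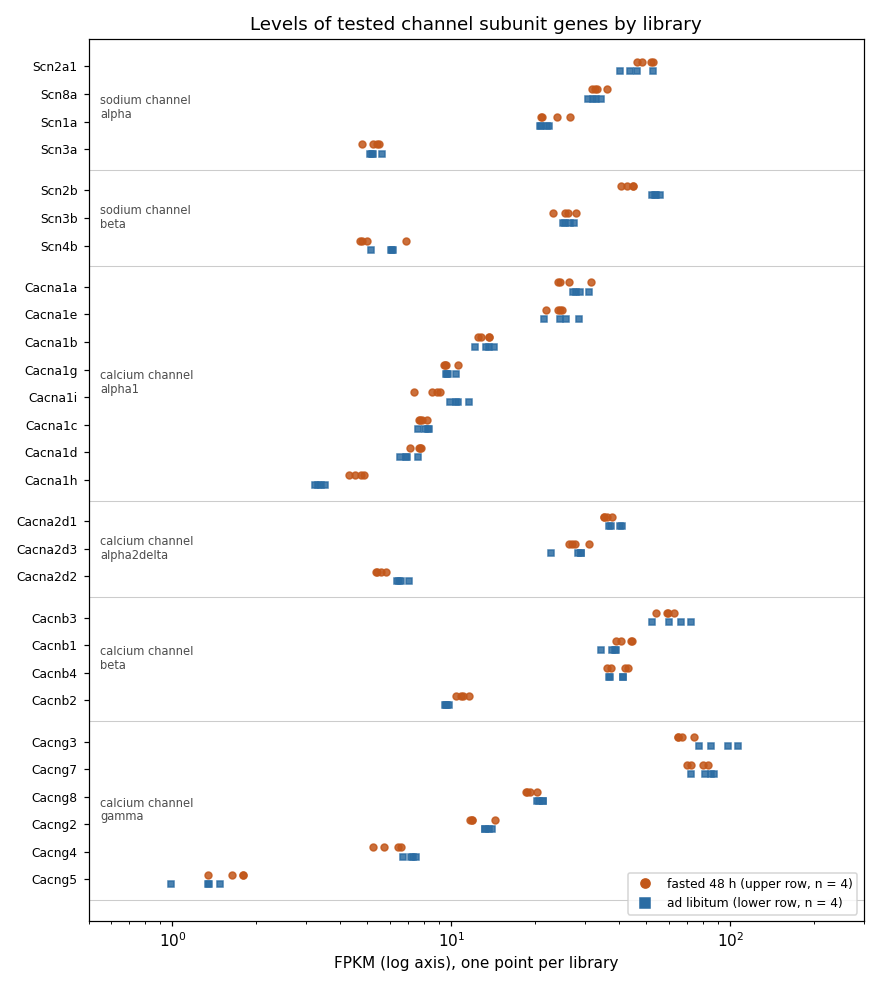
FPKM on a log axis for 28 of the 29 tested subunit genes, ordered by family and level, with a point per library (4 fasted libraries in the upper row of each gene and 4 ad libitum libraries in the lower row). Fasted and ad libitum points overlap for most genes and lie apart for Scn2b, Cacna1h, Cacna1i, Cacna2d2, Cacnb1, Cacnb2, Cacng3, Cacng4 and Cacng8.

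**Figure D2:**
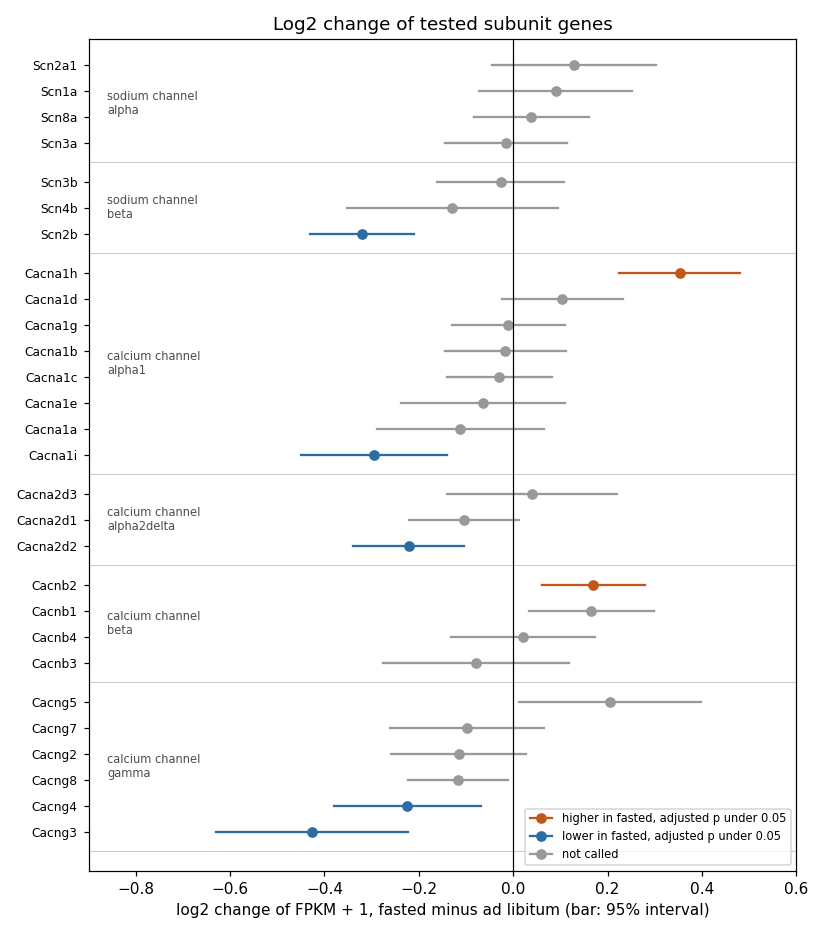
Difference in log2(FPKM + 1), fasted minus ad libitum, for 28 of the 29 tested subunit genes, with 95% intervals from limma and n = 4 libraries per group. Each of the alpha1 and gamma families holds genes on both sides of 0, from Cacna1h at 0.35 to Cacng3 at -0.43.

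The sodium channel alpha genes that carry the action potential in cortex did not pass the test. Scn2a1, listed in GENCODE as Scn2a and known from the initial segment of excitatory neurons, was the most abundant. Its FPKM were 46.3, 48.3, 52.8 and 52.0 in fasted libraries and 40.2, 43.5, 46.4 and 52.6 in ad libitum libraries. The groups overlapped, with ad libitum replicate 4 the second highest of all 8 values and ad libitum replicate 3 just above fasted replicate 1. The mean was 49.8 ± 3.10 FPKM in fasted and 45.7 ± 5.30 FPKM in ad libitum cortex (SD, n = 4 each), a log2 difference of 0.13 with a 95% interval of -0.05 to 0.30 (limma adjusted p = 0.257). Without ad libitum replicate 4 the log2 change was 0.20 and the limma adjusted p 0.0359. The limma adjusted p was 0.0515 with the replicate block, and 0.0154 with the block and GC and length offsets.

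Scn8a, the channel of the distal initial segment and of nodes of Ranvier, averaged 33.5 ± 1.86 FPKM in fasted and 32.6 ± 1.48 FPKM in ad libitum cortex (limma adjusted p = 0.639). Scn1a, the main alpha subunit of fast-spiking interneurons, averaged 23.1 ± 2.69 FPKM in fasted and 21.5 ± 0.80 FPKM in ad libitum cortex (limma adjusted p = 0.394). Scn3a, which is most abundant before birth, averaged 5.23 ± 0.31 FPKM in fasted and 5.29 ± 0.23 FPKM in ad libitum cortex (limma adjusted p = 0.872). Their 95% intervals together ran from -0.14 to 0.25 on the log2 scale. As a share of all FPKM of the alpha family, Scn2a1 took 44.1% in fasted and 43.0% in ad libitum cortex, Scn8a 29.7% in fasted and 30.8% in ad libitum cortex, and Scn1a 20.4% in both. The order Scn2a1, Scn8a, Scn1a, Scn3a held in all 8 libraries.

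Scn10a, the alpha subunit of tetrodotoxin-resistant current in pain-sensing neurons of peripheral ganglia, was under the filter but had the largest relative difference in the sodium channel family. It was singled out after its values were seen. Its FPKM were 0.610, 0.402, 0.370 and 0.457 in fasted libraries and 0.0592, 0.0240, 0.0627 and 0.0298 in ad libitum libraries. Every fasted library lay above every ad libitum library, and the lowest fasted value was 5.90 times the highest ad libitum value. The mean was 0.460 ± 0.106 FPKM in fasted and 0.0439 ± 0.0199 FPKM in ad libitum cortex (SD, n = 4 each), a ratio of 10.46. These levels stood for roughly 233 fragments in the 4 fasted libraries together and 22 in the 4 ad libitum libraries together, from the estimated depth and the longest annotated transcript. In the limma fit with no filter on low values, the log2 difference of FPKM + 1 was 0.48 (SE 0.05, limma adjusted p = 6.36e-04), a scale that understates changes of genes this low. Leaving out each library in turn kept the limma adjusted p between 8.43e-04 and 0.00373, and the replicate block gave 0.0028. Of the 11 subunit genes under the filter, Scn10a was the only one called in that fit, against 6.73% of the 6912 genes that only this fit included, 3.34% of which were called higher. Over all 40 subunit genes that fit called 3 higher and 4 lower, against 6.36% higher and 10.1% lower, 16.4% in all, of the 19289 genes in it.

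Scn10a lies at chr9:119608456-119719322 on the minus strand (mm10), next to Scn11a, another channel of sensory neurons. Scn11a did not pass the test and averaged 0.0142 FPKM in fasted and 0.0105 FPKM in ad libitum cortex (limma adjusted p = 0.869 with no filter). Within 250 kb on chromosome 9, Xylb, which encodes a sugar kinase, averaged 2.38 FPKM in fasted and 1.87 FPKM in ad libitum cortex, with every fasted library above every ad libitum library (limma adjusted p = 0.0461 with no filter). Cx3cr1, a microglial receptor gene, averaged 6.47 FPKM in fasted and 11.2 FPKM in ad libitum cortex, with every fasted library below every ad libitum library (limma adjusted p = 5.75e-04 with no filter). No annotated exon of another gene overlapped an exon of Scn10a. Markers of peripheral sensory neurons did not separate the groups: the summed FPKM of Prph, Trpv1 and Calca was 1.12 to 2.83 in fasted and 1.71 to 2.21 in ad libitum libraries. Prph, an intermediate filament gene, was the only one of the 3 above the filter and averaged 1.43 FPKM in fasted and 1.19 FPKM in ad libitum cortex (limma adjusted p = 0.598). Trpv1, the capsaicin receptor, averaged 0.0430 FPKM in fasted and 0.0351 FPKM in ad libitum cortex.

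**Figure D3:**
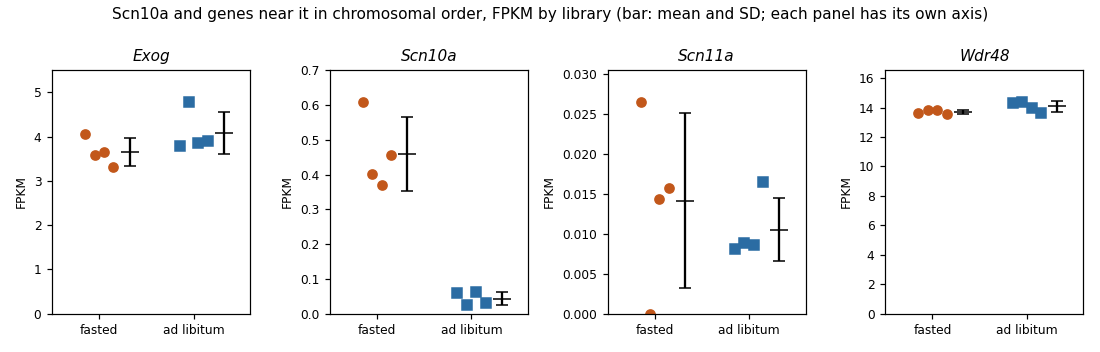
FPKM of Scn10a and of 3 genes that lie near it, in chromosomal order, with a point per library (fasted left, ad libitum right), bars for mean and SD, and an axis of its own in each panel. Of the 4 panels, Scn10a is the one in which all 4 fasted libraries lie above all 4 ad libitum libraries, with means of 0.460 FPKM in fasted and 0.0439 FPKM in ad libitum cortex.

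The promoter window of Scn10a is shown because of this difference, next to that of Scn2b, described below, which was lower in fasted cortex. Each window holds 250 bases before to 50 bases after a RefSeq transcript start (GRCm38.p6), printed 5′ to 3′ on the gene's strand. The Scn10a window lies wholly within the GENCODE span of Scn10a given above, downstream of the start of that span. Capitals mark TGACG, the half-site of the cAMP response element, or its reverse complement.
Scn10a, chr9:119718983-119719282, minus strand: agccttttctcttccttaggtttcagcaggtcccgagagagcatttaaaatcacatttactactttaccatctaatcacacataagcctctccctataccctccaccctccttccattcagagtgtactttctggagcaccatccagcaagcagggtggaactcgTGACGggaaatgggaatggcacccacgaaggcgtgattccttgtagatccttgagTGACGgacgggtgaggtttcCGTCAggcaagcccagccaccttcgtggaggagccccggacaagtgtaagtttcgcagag
Scn2b, chr9:45117626-45117925, plus strand: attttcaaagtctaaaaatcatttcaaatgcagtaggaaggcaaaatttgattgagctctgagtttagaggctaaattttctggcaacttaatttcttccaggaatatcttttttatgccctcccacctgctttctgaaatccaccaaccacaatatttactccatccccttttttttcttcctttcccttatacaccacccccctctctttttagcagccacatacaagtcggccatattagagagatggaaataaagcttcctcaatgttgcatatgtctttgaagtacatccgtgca
The Scn10a window held 3 such matches; of all 32817 RefSeq windows, 1.03% held 3 or more. The Scn2b window held none, which says only that these letters are not in it. Matches did not follow direction in the called genes Cacna1i, Cacna2d2 and Cacnb2. Cacna1h and Cacng4 had no window on record, and no window of Cacng3 is given here. A window of Cacna1i, which was lower, held 1 match and a window of Cacna2d2, also lower, held 0. Windows of Cacnb2, which was higher, held 0 and 1. Both the gene and the string were picked out from several, so the 1.03% is no test. Windows were on record for 30 of the 40 subunit genes, 41 windows in all. TGACG on either strand was in 14.6% of them, against 20.8% of all windows. The E-box CACGTG was in 0 of 41 against 7.15%, AGAACA, a half-site of the glucocorticoid receptor, in 17.1% against 19.0%, the GC box GGGCGG in 39.0% against 35.6%, and TATAAA in 4.88% against 13.6%. A match is a string of letters and not a binding site.

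The remaining alpha genes were at trace levels in both groups. Scn9a, a further sensory channel, had 0.104 to 0.185 FPKM in fasted and 0.217 to 0.238 FPKM in ad libitum libraries, with a limma adjusted p of 0.0837 in the fit with no filter. It and Scn10a were the 2 of the 11 genes under the filter whose groups did not overlap, against 9.53% of all genes under it. Scn7a, a sodium sensor of glia and of salt-sensing brain regions, averaged 0.526 FPKM in fasted and 0.607 FPKM in ad libitum cortex. Scn4a, the skeletal muscle channel, averaged 0.00894 FPKM in fasted and 0.0110 FPKM in ad libitum cortex, which is a handful of fragments over all libraries.

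Among the sodium channel beta genes, Scn2b was lower in fasted cortex and was the only one called. Scn2b encodes a beta subunit that is joined to the alpha subunit by a disulfide bond, and lies at chr9:45117782-45130070 on the plus strand (mm10). Its FPKM were 44.6, 42.6, 44.6 and 40.7 in fasted libraries and 52.6, 56.0, 54.0 and 53.9 in ad libitum libraries. All fasted libraries were below all ad libitum libraries, and each group was tight. The mean was 43.1 ± 1.89 FPKM in fasted and 54.1 ± 1.40 FPKM in ad libitum cortex (SD, n = 4 each), a log2 change of -0.32 (SE 0.05, limma adjusted p = 0.0013). Its neighbour Scn4b, the other disulfide-linked beta gene and the partner of resurgent current, averaged 5.34 ± 1.04 FPKM in fasted and 5.89 ± 0.49 FPKM in ad libitum cortex (limma adjusted p = 0.378). Fasted replicate 4 held 6.89 FPKM of Scn4b where the other 3 fasted libraries held 4.70 to 4.99; without it the log2 change was -0.24 and the limma adjusted p 0.0379.

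Scn3b, which encodes a beta subunit that binds without a disulfide bond, averaged 25.7 ± 1.95 FPKM in fasted and 26.2 ± 1.10 FPKM in ad libitum cortex (limma adjusted p = 0.776).

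**Figure D4:**
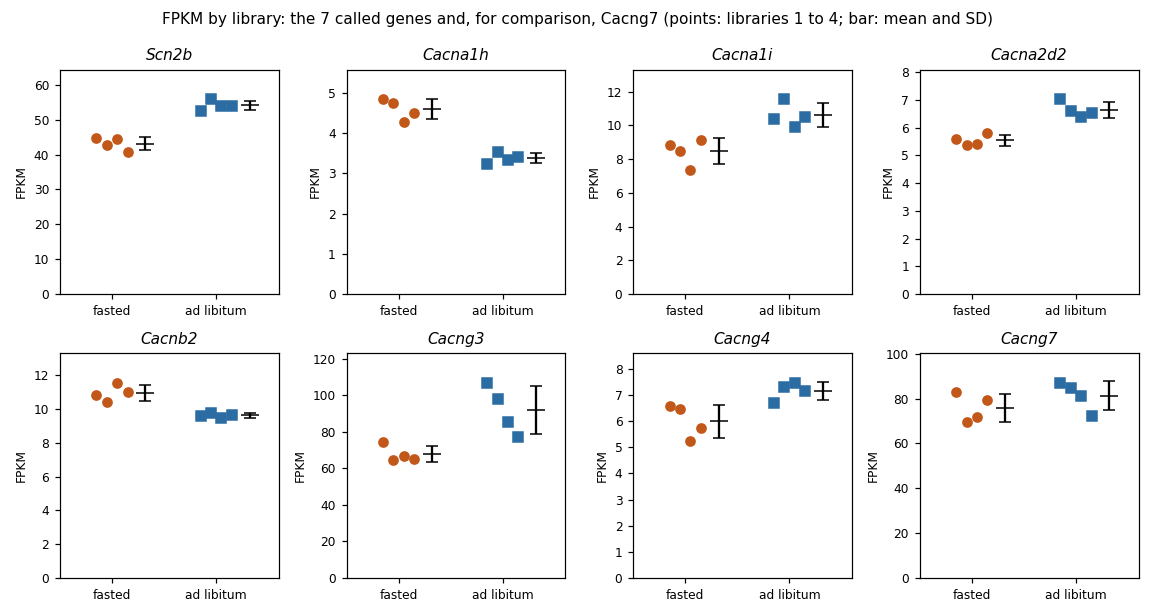
FPKM of the 7 called subunit genes and, for comparison, the uncalled Cacng7, with a point per library (fasted left, ad libitum right), bars for mean and SD (n = 4 each), and axes that start at 0. Cacna1h and Cacnb2 lie higher in fasted libraries and Scn2b, Cacna1i, Cacna2d2, Cacng3 and Cacng4 lower, without overlap, while the Cacng7 groups overlap.

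Of the calcium channel alpha1 genes, the T-type group held 2 called genes of 3, with opposite directions. Over all tested genes, 25.8% were called either way. T-type channels open near the resting potential and support burst firing. Cacna1h (chr17:25374285-25433783, minus strand, mm10) had 4.85, 4.74, 4.28 and 4.496 FPKM in fasted libraries and 3.23, 3.53, 3.33 and 3.41 FPKM in ad libitum libraries. All fasted libraries lay above all ad libitum libraries. The means were 4.59 ± 0.253 FPKM in fasted and 3.37 ± 0.127 FPKM in ad libitum cortex (SD, n = 4 each), a ratio of 1.36. The difference in log2(FPKM + 1) was 0.35 (SE 0.06, limma adjusted p = 0.00173). Cacna1h kept its call in each of the 19 alternative settings in which it was tested. An exon of Tpsg1 on the opposite strand covers 158 bases of Cacna1h exons, 1.62% of their length. Cacnb2, also called, shares exon bases with the opposite-strand genes Gm10849 (4.67% of its exon bases), Gm13269 (1.81%) and Gm10848 (0.839%). The called Cacna2d2 shares 1.03% with Gm17141 on the opposite strand. The sources used here do not say whether the libraries keep strand.

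Cacna1i (chr15:80287238-80398279, plus strand, mm10) had 8.84, 8.49, 7.35 and 9.12 FPKM in fasted libraries and 10.4, 11.6, 9.87 and 10.52 FPKM in ad libitum libraries. All fasted libraries lay below all ad libitum libraries, with means of 8.45 ± 0.777 FPKM in fasted and 10.6 ± 0.708 FPKM in ad libitum cortex (log2 change -0.30, SE 0.07, limma adjusted p = 0.0113). Cacna1g, the third T-type gene, averaged 9.74 ± 0.54 FPKM in fasted and 9.81 ± 0.38 FPKM in ad libitum cortex (limma adjusted p = 0.908). The summed FPKM of the 3 T-type genes overlapped between groups, at 21.02 to 24.16 in fasted and 22.8 to 24.6 in ad libitum libraries. The Cacna1h to Cacna1i ratio, which does not depend on scaling between libraries, was 0.548, 0.558, 0.582 and 0.493 in fasted cortex and 0.311, 0.305, 0.337 and 0.324 in ad libitum cortex. The ranges were far apart, with a log2 difference of 0.77 that stayed between 0.74 and 0.82 when each library was left out in turn.

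The high-voltage-activated alpha1 genes did not pass the test, though Cacna1a did with the replicate block and GC and length offsets (log2 change -0.16, limma adjusted p = 0.0200). Cacna1a, the P/Q-type pore of fast transmitter release and the most abundant alpha1 gene, had 24.5, 26.4, 24.2 and 31.6 FPKM in fasted libraries and 27.9, 28.8, 27.2 and 31.2 FPKM in ad libitum libraries. Fasted replicate 4 was the highest of all 8 and the other 3 fasted libraries lay below all ad libitum libraries (log2 difference -0.11, limma adjusted p = 0.331). Without fasted replicate 4 the log2 change was -0.19 and the limma adjusted p 0.0491. Cacna1e, the R-type pore, averaged 23.8 ± 1.38 FPKM in fasted and 25.1 ± 2.95 FPKM in ad libitum cortex (limma adjusted p = 0.579). Cacna1b, the N-type pore, averaged 13.1 ± 0.60 FPKM in fasted and 13.3 ± 0.85 FPKM in ad libitum cortex (limma adjusted p = 0.859). The L-type genes, whose channels couple calcium entry to gene expression, were split by little: Cacna1c averaged 7.86 ± 0.24 FPKM in fasted and 8.04 ± 0.31 FPKM in ad libitum cortex (limma adjusted p = 0.706). Cacna1d averaged 7.57 ± 0.33 FPKM in fasted and 6.97 ± 0.45 FPKM in ad libitum cortex (limma adjusted p = 0.212). The retinal and skeletal muscle L-type genes, Cacna1f and Cacna1s, stayed below 0.1 FPKM in all libraries.

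Of the auxiliary calcium channel genes, an alpha2delta gene was lower and a beta gene higher in fasted cortex. Cacna2d2 (chr9:107399612-107529343, plus strand, mm10), an alpha2delta subunit that binds gabapentin, had 5.57, 5.38, 5.40 and 5.81 FPKM in fasted libraries and 7.04, 6.59, 6.38 and 6.51 FPKM in ad libitum libraries. The groups did not overlap, with means of 5.54 ± 0.202 FPKM in fasted and 6.63 ± 0.286 FPKM in ad libitum cortex (log2 change -0.22, SE 0.05, limma adjusted p = 0.0122). The more abundant Cacna2d1, the other gabapentin-binding subunit, had 36.2, 35.3, 37.5 and 35.1 FPKM in fasted libraries and 36.7, 37.3, 40.9 and 40.3 FPKM in ad libitum libraries, and did not pass the test (log2 difference -0.10, limma adjusted p = 0.172). Cacna2d3 averaged 28.0 ± 2.06 FPKM in fasted and 27.3 ± 3.09 FPKM in ad libitum cortex (limma adjusted p = 0.755). Cacna2d4, the retinal member, stayed below 0.55 FPKM in all libraries.

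The beta subunits bind the alpha1 pore from the cytoplasm and bring it to the membrane. Cacnb2 (chr2:14603088-14987908, plus strand, mm10), the least abundant of the 4, had 10.8, 10.4, 11.6 and 11.02 FPKM in fasted libraries and 9.57, 9.79, 9.48 and 9.66 FPKM in ad libitum libraries. All fasted libraries were above all ad libitum libraries, with means of 10.96 ± 0.475 FPKM in fasted and 9.62 ± 0.133 FPKM in ad libitum cortex (log2 change 0.17, SE 0.05, limma adjusted p = 0.0267). This call was lost when any of 6 libraries was left out (fasted replicates 1, 3 and 4 and ad libitum replicates 1, 2 and 3), with limma adjusted p from 0.0503 to 0.0797. Cacnb1 had 44.5, 39.0, 40.4 and 44.1 FPKM in fasted libraries and 37.5, 38.8, 34.5 and 38.5 FPKM in ad libitum libraries. Its groups also did not overlap, by a narrow gap. It passed with the replicate block but not with group as the only term (log2 difference 0.17, limma adjusted p = 0.0212 and 0.0659). It also passed with 3 other scalings, with limma adjusted p from 0.0237 to 0.0418. Cacnb3, the most abundant, had 63.0, 59.6, 54.0 and 59.4 FPKM in fasted libraries and 72.2, 66.4, 60.0 and 52.4 FPKM in ad libitum libraries, whose spread covered the fasted range (limma adjusted p = 0.548). Cacnb4, the gene mutated in the lethargic mouse, averaged 39.7 ± 3.39 FPKM in fasted and 39.1 ± 2.54 FPKM in ad libitum cortex (limma adjusted p = 0.851).

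In the gamma family, 2 of the 4 type I TARP genes were called lower in fasted cortex, against 16.3% of all tested genes. Cacng3 (chr7:122670492-122769393, plus strand, mm10), a TARP of forebrain neurons, had 74.3, 64.7, 66.8 and 64.9 FPKM in fasted libraries and 106.9, 97.9, 85.4 and 77.4 FPKM in ad libitum libraries. The fasted libraries lay close together below a wider spread of ad libitum libraries, from which they were separated by a gap between 74.3 and 77.4 FPKM. The means were 67.7 ± 4.52 FPKM in fasted and 91.9 ± 13.1 FPKM in ad libitum cortex (SD, n = 4 each). On the log2(FPKM + 1) scale this was the largest change of the 29 tested genes, at -0.43 (SE 0.09, limma adjusted p = 0.0071). That rank depends on the added 1, since with log2(FPKM + 0.1) Cacng3 changed by -0.432 and Cacna1h by 0.432. Cacng4 (chr11:107732357-107794557, minus strand, mm10) had 6.58, 6.45, 5.23 and 5.75 FPKM in fasted libraries and 6.68, 7.30, 7.48 and 7.18 FPKM in ad libitum libraries. The gap between groups was narrow, and the log2 change of -0.22 (SE 0.07, limma adjusted p = 0.0378) lost its call without fasted replicate 3 or 4 or ad libitum replicate 2 or 3, with limma adjusted p from 0.0841 to 0.103. It also lost its call with median-ratio scaling (limma adjusted p = 0.0504) and with no filter (limma adjusted p = 0.0584).

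The other type I genes were lower on average without passing the test, and their log2 differences were 0.002 for Cacng2 and 0.004 for Cacng8 with equal-sum scaling. Cacng2, or stargazin, had 11.7, 11.9, 11.9 and 14.3 FPKM in fasted libraries and 13.2, 13.6, 14.0 and 13.2 FPKM in ad libitum libraries. Fasted replicate 4 was the highest of all 8 and the other 3 fasted libraries lay below every ad libitum library (log2 difference -0.12, limma adjusted p = 0.215); without fasted replicate 4 the log2 change was -0.18 and the limma adjusted p 0.0329. Cacng8, abundant in hippocampus, averaged 19.2 ± 0.77 FPKM in fasted and 20.9 ± 0.48 FPKM in ad libitum cortex, with a gap of less than 0.1 FPKM between groups (log2 difference -0.12, limma adjusted p = 0.0968). The summed FPKM of the 4 type I genes was 103.1 to 111.2 in fasted and 119.1 to 147.0 in ad libitum libraries, mostly Cacng3. Of the type II TARP genes, Cacng7 had 82.9, 69.7, 72.0 and 79.5 FPKM in fasted libraries and 87.1, 84.9, 81.1 and 72.5 FPKM in ad libitum libraries, with overlap (limma adjusted p = 0.362). Cacng5 averaged 1.64 ± 0.21 FPKM in fasted and 1.29 ± 0.21 FPKM in ad libitum cortex. This gene passed with the replicate block but not with group as the only term (log2 difference 0.20, limma adjusted p = 0.0370 and 0.107). It also passed with equal-sum scaling, quantile normalization and GC and length offsets, with limma adjusted p from 0.0344 to 0.0426. The Cacng3 to Cacng7 ratio was 0.896, 0.928, 0.928 and 0.816 in fasted libraries and 1.226, 1.154, 1.053 and 1.067 in ad libitum libraries. Cacng3 was thus below Cacng7 in every fasted library and above it in every ad libitum library (log2 difference of the ratio -0.33). Cacng1 and Cacng6, gamma genes of skeletal muscle, stayed under the filter.

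These 2 within-library ratios, of 3 computed, were chosen after values were seen and pair genes whose levels were known, so they are given as a description with no test. Shares of family FPKM, also given as a description, followed the calls only in part. Cacng3 took 36.9% of the gamma family in fasted and 42.3% in ad libitum cortex. Cacna1h took 4.51% of the alpha1 family in fasted and 3.19% in ad libitum cortex. Cacna1i took 8.294% in fasted and 9.996% in ad libitum cortex. The shares of Scn2b and Cacnb2 also lay apart, in the direction of their calls. Those of the called Cacng4 (3.276% in fasted, 3.333% in ad libitum cortex) and Cacna2d2 (7.926% and 9.104%) overlapped between groups. Shares of some uncalled genes did not overlap. Among them, Cacng7 (41.447% in fasted, 37.635% in ad libitum cortex) and Cacna1d (7.43% and 6.574%) were higher, and Scn3a was lower. The leading shares of the sodium alpha, alpha1, alpha2delta and calcium beta families overlapped between groups, those of Scn2a1, Cacna1a, Cacna2d1 and Cacnb3. The 29 tested genes are long, with a median gene span of 111.0 kb against 25.5 kb over all tested genes.

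**Figure D5:**
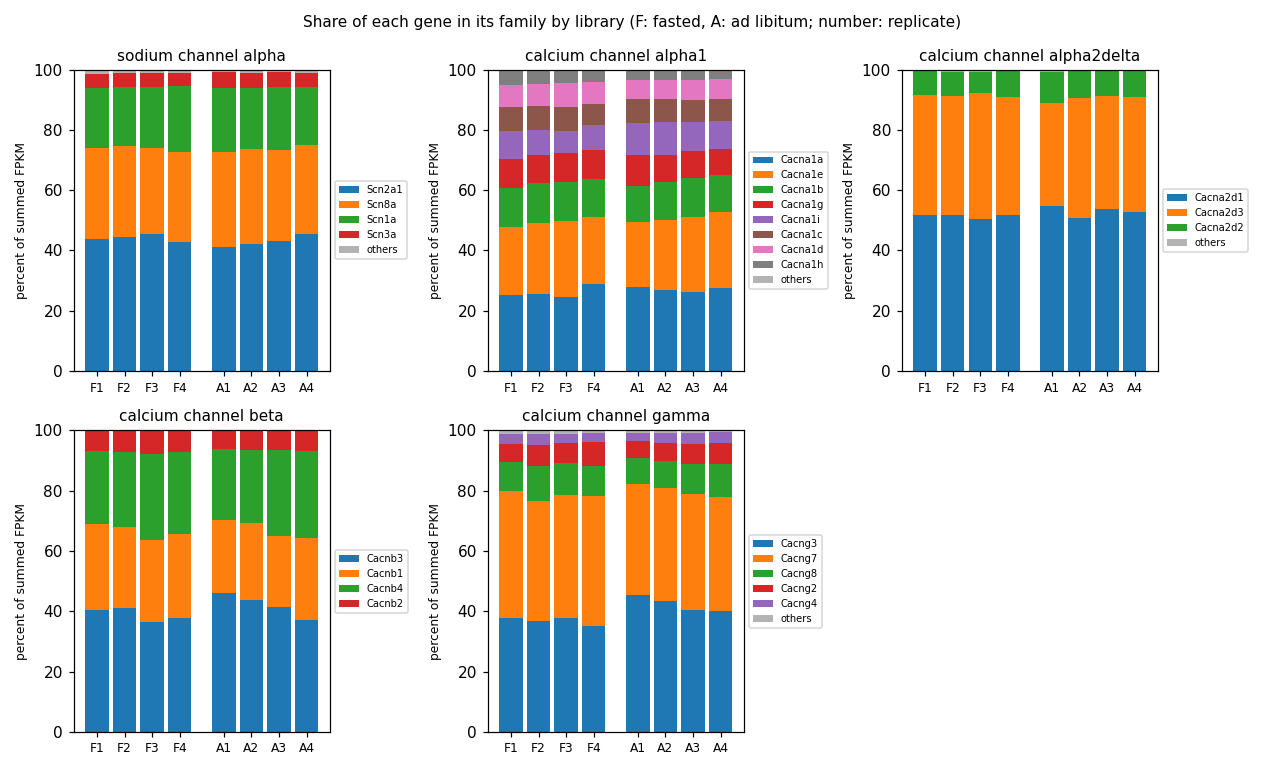
Share of each gene in the summed FPKM of its family, in percent, for 5 of the 6 families, as a stacked bar per library (4 fasted, F1 to F4, left; 4 ad libitum, A1 to A4, right). The Cacng3 and Cacna1i segments are smaller and the Cacna1h segment larger in fasted libraries, while the Scn2a1 and Cacna2d1 segments overlap between groups.

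Partner genes of the channels were drawn from lists chosen with earlier results of these data known. Of 16 tested sodium channel anchors and modulators, 1 was higher and 4 were lower in fasted cortex, with a median log2 change of -0.09, against 9.56% higher and 16.3% lower of all tested genes. With the replicate block 2 were higher and 6 lower, against 36.4% of all tested genes called either way. Fgf14, an intracellular factor that binds the sodium channel tail, averaged 16.6 ± 0.86 FPKM in fasted and 14.1 ± 0.45 FPKM in ad libitum cortex (limma adjusted p = 0.0110). Its relatives Fgf13, with 58.4 ± 4.07 FPKM in fasted and 70.6 ± 4.99 FPKM in ad libitum cortex, and Fgf11, with 4.57 ± 0.64 FPKM in fasted and 6.19 ± 0.79 FPKM in ad libitum cortex, were lower (limma adjusted p = 0.0135 and 0.0183). Nedd4, a ubiquitin ligase, and Ank3, which encodes the initial segment scaffold ankyrin-G, fell by 0.18 and 0.17 on the log2 scale (limma adjusted p = 0.0220 and 0.0282), Ank3 being named outside the rule because it completes the count.

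Of 15 tested calcium channel regulators, 1 was higher and 5 were lower, with a median log2 change of -0.11, against the same 9.56% and 16.3% of all tested genes. Bzrap1 and Rimbp2, which encode RIM-binding proteins that tether calcium channels at active zones, had opposite directions: Bzrap1 averaged 34.1 ± 2.50 FPKM in fasted and 27.2 ± 0.79 FPKM in ad libitum cortex, and Rimbp2 18.1 ± 0.91 FPKM in fasted and 22.1 ± 0.71 FPKM in ad libitum cortex (limma adjusted p = 0.00291 and 0.00314). The kinase anchors Akap5 and Akap7 fell by 0.28 and 0.26 on the log2 scale (limma adjusted p = 0.00246 and 0.00354). Rims1 and Dpysl2 complete the 5. Of 11 tested AMPA receptor genes and auxiliaries other than TARPs, 3 were called, all lower, against 25.8% of all tested genes called either way. Shisa9, an auxiliary subunit, averaged 8.94 ± 0.57 FPKM in fasted and 13.5 ± 0.27 FPKM in ad libitum cortex (limma adjusted p = 1.16e-04), Gsg1l, another, fell by 0.23 and the pore subunit Gria4 by 0.18 on the log2 scale (limma adjusted p = 0.0191 and 0.0393). Of the 4 tested genes of the NALCN sodium leak complex, limma called 0, with 0 at an unadjusted p under 0.05; Nalcn averaged 14.3 ± 1.29 FPKM in fasted and 15.7 ± 1.74 FPKM in ad libitum cortex, and Unc80 26.7 ± 0.89 FPKM in fasted and 28.0 ± 1.27 FPKM in ad libitum cortex (limma adjusted p = 0.306 and 0.380).

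Several cell type markers moved with the groups, and their part in the channel results was not tested. Their counts stand against 9.56% of all tested genes called higher and 16.3% called lower. Of 6 excitatory neuron markers, 3 were lower, among them Neurod6 and Tbr1, and the list summed to 1697 to 1966 FPKM in fasted and 1661 to 2085 FPKM in ad libitum libraries. Of 6 inhibitory neuron markers limma called 0, with 1 at an unadjusted p under 0.05, and with sums of 349 to 442 FPKM in fasted and 339 to 470.2 FPKM in ad libitum libraries. Astrocyte markers were lower in 3 of 5, with sums of 362 to 398 FPKM in fasted and 414 to 430.0 FPKM in ad libitum libraries. Of 4 oligodendrocyte precursor markers, Gpr17 and Olig2 were lower, with sums of 27.1 to 30.9 FPKM in fasted and 32.3 to 35.9 FPKM in ad libitum libraries. Microglial markers were lower in 4 of 5, with sums of 32.1 to 35.4 FPKM in fasted and 44.4 to 54.1 FPKM in ad libitum libraries. Of 5 oligodendrocyte markers, Mobp was higher, with sums of 1498 to 1785 FPKM in fasted and 1378 to 1714 FPKM in ad libitum libraries. Of 4 tested markers of meninges and fibroblasts, Col1a1 was lower, with sums over the list of 22.7 to 41.1 FPKM in fasted and 37.6 to 48.9 FPKM in ad libitum libraries. Of 4 thalamic markers, Slc17a6 was lower, with sums of 11.3 to 13.6 FPKM in fasted and 13.1 to 13.8 FPKM in ad libitum libraries. Markers of endothelium and mural cells summed to 22.7 to 27.2 FPKM in fasted and 26.6 to 32.5 FPKM in ad libitum libraries, and hippocampal markers to 36.6 to 59.3 FPKM in fasted and 41.3 to 49.9 FPKM in ad libitum libraries. Of 3 tested striatal markers, 1 was higher, Ppp1r1b, and 1 lower, and the list of 5 summed to 63.8 to 71.7 FPKM in fasted and 45.8 to 59.1 FPKM in ad libitum libraries, with Drd1 at 1.88 to 3.09 FPKM over both groups. None of these lists held a gene at 0 in all libraries.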

How the data were processed

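RNA was measured in 8 libraries of mouse occipital cortex, 4 fasted for 48 h and 4 fed ad libitum, grouped by each sample's treatment label. Per the submitters' processing notes, TopHat and build mm10 were used; the sources used here do not give its version, the quantifier, the annotation or the strandedness. The values deposited by the authors are FPKM, in 1 table of 24883 rows. Where 1 of 282 repeated symbols stood on several rows, the row with the highest mean was used; no subunit gene was among them. Depth is not stated and was estimated from the FPKM of 1 fragment in 5857 genes with a single transcript, so fragment numbers are approximate.

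Genes that reached 1 FPKM in at least 4 libraries were tested on log2(FPKM + 1) with limma 3.58.1 (trend, robust) in R 4.3.3, with group as the only term. The p-values were adjusted by Benjamini-Hochberg over all 12377 genes, and genes under 0.05 were called. Tables and figures used Python 3.11.15, pandas 2.3.3 and matplotlib 3.10.9. Coordinates are from GENCODE M21 (GRCm38, the assembly of mm10), which held all 40 genes, and promoter windows from RefSeq. Values are mean ± SD.

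Tested on simulated data, with 200 of 12377 genes changed, the fit recovered 8% at 1.2-fold, 80% at 1.5-fold and 95.5% at 2-fold, with 0, 6 and 8 false calls. The simulation changed far fewer genes than the 25.8% called in the real data. It also drew each value independently, without the shared deviations of same-numbered libraries. Its rates of recovery and of false calls therefore do not carry over to the calls reported here. Subunit genes and lists were chosen with earlier results of these data known. Per-library values are given for called genes, the most abundant gene of each family and uncalled relatives of called genes. Some genes and a promoter window that this covers are not reported here.

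The replicate numbers of the titles were taken as pairing the libraries only in the fits with the replicate block. The fit behind the calls had group as its only term and did not use them. Same-numbered libraries deviated together over all tested genes, with correlations of 0.574, 0.496, 0.382 and 0.523 for numbers 1 to 4. Sex-linked transcripts were alike within numbers 1, 2 and 4. Over 11505 autosomal protein-coding genes the correlations were 0.339, 0.199, 0.0787 and 0.371, and number 3 correlated better with another number, at 0.218. The alternatives tried were other scalings, pseudocounts, filters, GC and length offsets, the replicate block, and each library left out.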

Additional observations from a re-analysis of the deposited data

Results flagged for a closer look

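A library far from the other 3 of its group was found in 8 of the 80 sets of 4 values (40 genes in each group). Chance gives about 5% for normally distributed values, which sets of a few fragments or of 0 are not. The 8 sets are therefore listed without being read against that rate. In tested genes, Scn4b had 6.89 FPKM in fasted replicate 4 (the others 4.70 to 4.99), and 5.15 FPKM in ad libitum replicate 4 (the others 6.08 to 6.19), so that replicate 4 departed in opposite directions in the groups. Cacng2 had 14.3 FPKM in fasted replicate 4 (the others 11.7 to 11.9). Cacna2d3 had 22.7 FPKM in ad libitum replicate 1 (the others 28.3 to 29.2); without it the log2 difference was -0.04 in place of 0.04. In genes under the filter, Scn9a had 0.238 FPKM in ad libitum replicate 1 (the others 0.217 to 0.219), Cacna1f 0.0664 FPKM in ad libitum replicate 3 (the others 0.0157 to 0.0237), Scn11a 0.0164 FPKM in ad libitum replicate 4 (the others 0.00816 to 0.00883) and Cacng1 0.0477 FPKM in ad libitum replicate 1, where the others were listed at 0. The last 3 rest on about 8.1, 1.9 and 1.1 fragments.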

How the results depend on the processing

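With 2 subunit genes called higher and 5 lower, the higher count was 4 with quantile normalization, 1 with a 5 FPKM filter, 4 with the replicate block, 6 with the replicate block with GC and length offsets, and 1 to 4 with each library left out. The lower count was 1 with equal-sum scaling and 4 to 7 with each library left out. The replicate block on its own changed no other call than those of Cacnb1 and Cacng5. Over all tested genes, 1183 were higher and 2015 lower. The higher count was 1792 with quantile normalization, 2001 with GC and length offsets, 2513 with the replicate block added to these, and 841 to 1196 with each library left out; the lower count was 534 with equal-sum scaling, beside 1585 higher, and 1406 to 2572 with each library left out. Equal-sum scaling put the median log2 change of all tested genes at 0.09 in place of -0.02, and ended the calls of Scn2b (limma adjusted p = 0.186), Cacna1i (0.249), Cacna2d2 (0.499), Cacng4 (0.492) and Cacnb2 (0.0537). With equal sums taken without the 10 most abundant genes, an alternative chosen after seeing the data, the median was -0.002 and 2 subunit genes were higher and 4 lower, Cacng4 having dropped out (limma adjusted p = 0.0746). Changes of sign occurred only in uncalled genes. With equal-sum scaling the log2 differences were 0.010 for Cacna1a, 0.101 for Cacna1b, 0.082 for Cacna1c, 0.057 for Cacna1e, 0.104 for Cacna1g, 0.020 for Cacna2d1, 0.046 for Cacnb3, 0.002 for Cacng2, 0.028 for Cacng7, 0.004 for Cacng8, 0.090 for Scn3a and 0.095 for Scn3b. Cacna1b, Cacna1g, Scn3a and Scn3b came to 0.011, 0.017, 0.010 and 0.002 with median-ratio scaling and to 0.008, 0.012, 0.000 and 0.001 with quantile normalization; the first 3 came to 0.007, 0.013 and 0.006 without the 10 most abundant genes. With each library left out, Cacna1b ranged from -0.056 to 0.012, Cacna1g from -0.045 to 0.014, Cacna2d3 from -0.044 to 0.072, Cacnb4 from -0.019 to 0.063, Scn3a from -0.035 to 0.019 and Scn3b from -0.065 to 0.020. The cause of these shifts was not tested.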
